A study of Mus musculus with 20 samples.

Results

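The chemokine ligands are a family of small secreted proteins, some of them anchored in membranes, that draw leukocytes along gradients. The members were taken by name, as every gene of the table whose symbol starts with Ccl, Cxcl, Cx3cl or Xcl, followed by a number and at most 1 letter, with Ccl21a left out. This gave 35 ligands of 30691 lines with a gene name, and 31 of the 35 passed the filter on low values (a normalized signal of at least 10 in at least 4 libraries) and were tested among 21658 genes. Xcl1, Ccl4, Ccl20 and Cxcl11 did not pass and are given as levels.

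Each sample was whole lung from C57BL/6 mice, wild type (WT) or labelled as carrying a deletion of the gene for vasoactive intestinal peptide (VIPKO), profiled by RNA sequencing. There were 6 WT and 4 VIPKO libraries from normoxia (21% oxygen) and 5 WT and 5 VIPKO libraries from chronic hypoxia (10% oxygen for 4 weeks). The titles call the second genotype a knockout and the genotype field calls it a knockdown. The sources used here state neither the age of the mice nor which part of Vip was deleted, and all libraries carry the same batch label. Whether each library is a separate mouse is not stated, and p-values cover only how much these samples vary. The signal is the submitters' normalized gene count.

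Estimated depth ran from 4.96 M reads in WT hypoxia 4 to 56.8 M reads in the deepest of 19 libraries, and that of VIPKO hypoxia 2 could not be settled. Vip itself did not separate the genotypes. It lay between 0 and 12.7 in 18 libraries, at 93.0 in WT normoxia 5 and at 106 in the library labelled VIPKO hypoxia 4, so that every genotype comparison rests on the labels. In VIPKO hypoxia 3 the summed signal of 9 thymic genes was 17209, against at most 94.3 elsewhere, and WT hypoxia 5 was high in skeletal muscle genes. Mitochondrial ribosomal RNA, summed over 2 genes, ran from 97.7 to 2075 in WT normoxia and from 12034 to 27208 in VIPKO normoxia. It ran from 4506 to 9415 in VIPKO hypoxia and from 396 to 1563 in WT hypoxia, apart from WT hypoxia 5 at 7058. Genotype and this difference in RNA content therefore cannot be fully told apart in any genotype comparison. The ranges of VIPKO normoxia and VIPKO hypoxia did not overlap either, so the same limit holds for hypoxia in VIPKO.

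Chemokines act through receptors coupled to G proteins on leukocytes, and a set of atypical receptors binds them without classical signalling and clears them from tissue. Some ligands are made constantly and place cells in lymphoid tissue, marrow and vessel walls, among them Cxcl12, Ccl19 and the Ccl21 genes. Others are induced in inflammation and recruit neutrophils (Cxcl1, Cxcl2, Cxcl5), monocytes (Ccl2, Ccl7, Ccl12) or effector T cells (Cxcl9, Cxcl10). In the lung, epithelium, macrophages, endothelium and lymphatic vessels each contribute their own ligands.

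Many members lie in clusters, but sharing a chromosome does not by itself make them neighbours. On chromosome 1, Ccl20 starts at 83116766 and Xcl1 at 164931644. By GENCODE vM21 coordinates of GRCm38 (mm10), 11 ligands lie on chromosome 11, all of them CC genes except Cxcl16, and 10 on chromosome 5, all of them CXC genes except Ccl24. Chromosomes 4 and 8 carry 4 each, chromosomes 1 and 13 carry 2 each, and chromosomes 6 and 7 carry 1 each, Cxcl12 and Cxcl17. Neighbours of a cluster are not independent measurements where reads cannot be told apart, and this bears most on the Ccl21 genes of chromosome 4.

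Ccl21 attracts cells that carry the receptor Ccr7 and exists in the mouse as several nearly identical genes. In the annotated transcripts, the 402 coding bases of Ccl21b, Ccl21d (annotated as Gm21541), Gm13304 and Gm10591 were the same, and Ccl21a differed at A84T and T194C (Ccl21b base first, positions counted from 1 at the start codon). The stretch from coding base 64 to 214 is shown because it holds both differences, which are in capitals.
Ccl21b: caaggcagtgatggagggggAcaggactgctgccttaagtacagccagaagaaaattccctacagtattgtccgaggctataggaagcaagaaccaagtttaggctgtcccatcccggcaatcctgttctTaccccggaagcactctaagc
Ccl21a: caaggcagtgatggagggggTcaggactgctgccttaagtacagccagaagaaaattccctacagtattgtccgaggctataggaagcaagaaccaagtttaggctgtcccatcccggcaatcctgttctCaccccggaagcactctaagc
Between these differences lie 109 identical coding bases, with 83 before the first and 208 after the second. A read from coding sequence that covers neither base matches all 5 genes, and a coding read cannot separate Ccl21b from Ccl21d, Gm13304 and Gm10591.

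Promoter windows of the ligands were searched because members that move together may carry the same letters. RefSeq (GRCm38.p6) gave a window of 250 bases before the gene start for 25 of the 35 ligands. A form of the NF-kB motif, GGGA and TTCC with any 2 bases between them, was found on either strand in 4 of the 25 windows (Cxcl1, Cxcl2, Cxcl3 and Cxcl10) and in 1.17% of 27025 promoters of the same length. The interferon response letters, GAAA and GAAA with any 2 bases between them, were in 3 (Ccl19, Cxcl10 and Cxcl14; 3.04% of promoters) and the TATA box TATAAA in 8 (12.97% of promoters). The cores of the hypoxia response element, ACGTG and GCGTG, were in 3 and 10 windows, against 16.6% and 28.2% of promoters. Matches are descriptions of letters only. The NF-kB matches of Cxcl2 overlap each other, and no other matches in the windows printed here overlap.

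The windows of Cxcl12, the ligand called with hypoxia in both genotypes, and of Cxcl2 and Cxcl10, which hold the NF-kB letters, are shown with matches in capitals. That of Cxcl12 (chr6:117168285-117168534, plus strand) held none of the 5 motifs, which says only that these letters are not in this window. That of Cxcl2 (chr5:90903649-90903870, plus strand) is cut where the annotated gene starts, and its NF-kB letters give a pair of overlapping matches. That of Cxcl10 (chr5:92348890-92349139, minus strand) holds GCGTG on the other strand, the interferon letters and the NF-kB letters.
Cxcl12: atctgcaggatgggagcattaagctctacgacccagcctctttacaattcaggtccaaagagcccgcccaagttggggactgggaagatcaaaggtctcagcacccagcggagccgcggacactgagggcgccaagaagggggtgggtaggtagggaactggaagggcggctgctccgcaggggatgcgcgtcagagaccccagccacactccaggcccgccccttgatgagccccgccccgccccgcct
Cxcl2: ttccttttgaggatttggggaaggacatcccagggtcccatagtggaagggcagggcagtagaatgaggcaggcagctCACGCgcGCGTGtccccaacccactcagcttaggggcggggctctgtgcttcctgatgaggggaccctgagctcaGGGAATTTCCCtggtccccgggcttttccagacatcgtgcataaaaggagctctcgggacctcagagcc
Cxcl10: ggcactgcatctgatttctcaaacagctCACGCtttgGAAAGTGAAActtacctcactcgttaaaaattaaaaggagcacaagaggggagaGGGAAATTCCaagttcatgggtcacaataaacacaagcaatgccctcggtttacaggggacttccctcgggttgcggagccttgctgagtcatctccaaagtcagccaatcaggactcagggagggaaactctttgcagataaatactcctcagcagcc

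Ligand levels, as mean signal per kb of annotated exon over all 20 libraries, spanned more than 4 orders of magnitude on a log axis. Cxcl15, a neutrophil attractant of lung epithelium also called lungkine, was highest with 6591 per kb. Ccl21b (1722 per kb), Cxcl12 (1214 per kb), the macrophage product Ccl6 (1164 per kb) and the epithelial ligand Cxcl14 (954 per kb) came next. The place of Ccl21b rests on its annotated exon of 402 bases, all coding, and on how reads were assigned among the copies. With the 870 bases of Ccl21d its mean would be 796 per kb, below Cxcl14. Cxcl16 and Cxcl17 followed at 362 and 358 per kb and Cx3cl1 at 199 per kb.

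Ligands known mainly as inducible were low. Ccl2, the main monocyte attractant, had 8.59 per kb, Cxcl1 6.53, Cxcl10 11.2 and Cxcl2 11.2 per kb. Cxcl11, the lowest, had 0.404 per kb and was listed at 0 in 4 of 20 libraries, while Xcl1 was at 0 in 3, Ccl4 in 3 and Ccl20 in 2. The highest signal of a library was 15.1 for Xcl1, 12.5 for Ccl4 and 12.7 for Ccl20. The lowest Cxcl11 value of VIPKO normoxia, 1.89e-18, and its median in VIPKO hypoxia, 1.13e-18, are also 0 in effect. GENCODE vM21 types Cxcl11 as a polymorphic pseudogene. At these levels counting error is large: 3 reads, the limit that a count of 0 allows, correspond to a signal of 11.7 in WT hypoxia 4 and 1.03 in the deepest of the 19 libraries.

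**Figure D1:**
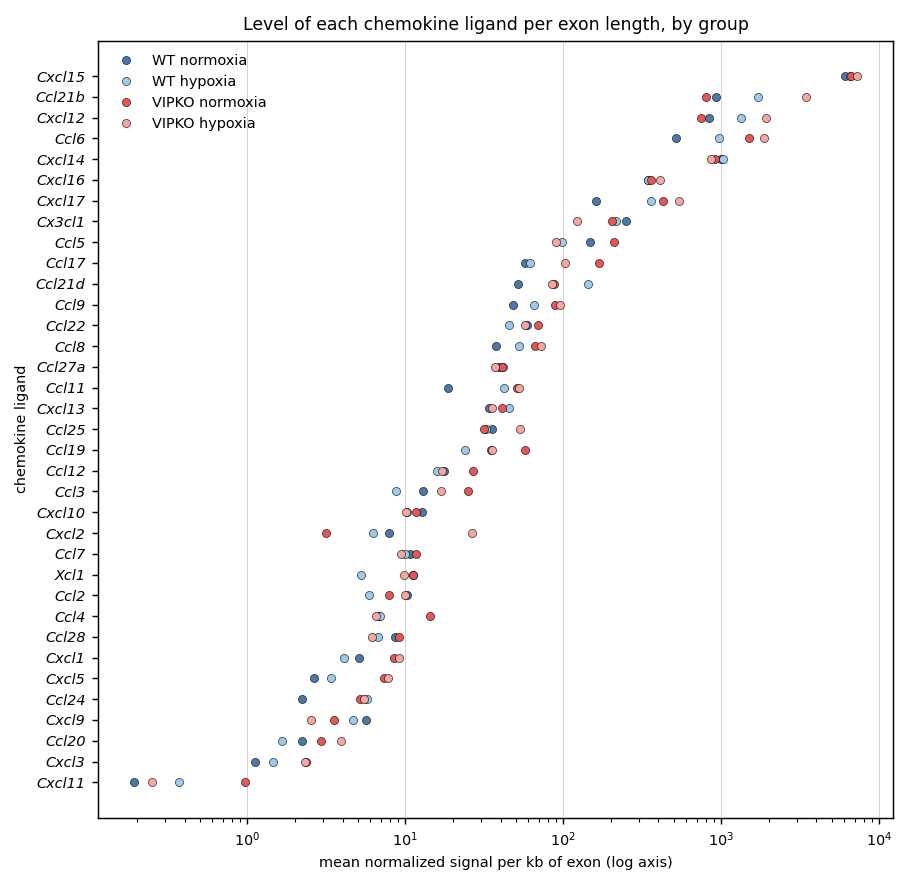
Mean normalized signal per kb of exon (log axis) of each of the 35 chemokine ligands, with 1 point for each of the 4 groups, in order of the mean over all libraries. Cxcl15 stands at the top with 6591 per kb, Cxcl11 at the bottom with 0.404 per kb, and for Cxcl15, Cxcl14 and Cxcl16 the points of the groups lie close together.

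Few ligands passed the test in any comparison. Changes are log2 differences of signal + 1 with SE from limma, and a call means a Benjamini-Hochberg adjusted p under 0.05 over all 21658 genes. Hypoxia in WT called 2 ligands of 31, both higher, or 6.45%, where 14.7% of all genes were called. Hypoxia in VIPKO called 4, 2 higher and 2 lower (12.9%, against 0.997% of all genes). VIPKO against WT called 2 in normoxia, both higher (6.45%, against 8.65%), and 1 in hypoxia, lower (3.23%, against 1.62%).

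By direction, the calls made up 7.88% (higher) and 6.77% (lower) of all genes for hypoxia in WT, 0.614% and 0.383% for hypoxia in VIPKO, 4.69% and 3.96% for VIPKO against WT in normoxia, and 0.716% and 0.900% in hypoxia. Groups did not overlap for 1 ligand of 31 with hypoxia in WT (7.94% of all genes) and for 5 in VIPKO (5.13% of all genes). For VIPKO against WT they did not overlap for 2 in normoxia (9.87% of all genes) and 3 in hypoxia (3.76% of all genes).

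The median change of the 31 ligands was 0.00 for hypoxia in WT and -0.01 for hypoxia in VIPKO. For VIPKO against WT it was 0.14 in normoxia and 0.40 in hypoxia, and the median over all genes lay between -0.01 and 0.02 in these 4 comparisons. With VIPKO, 21 of the 31 changes were positive at either oxygen level, where 50.8% of all genes were positive in normoxia and 52.8% in hypoxia. The comparisons share libraries, so these counts are not independent of each other.

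**Figure D2:**
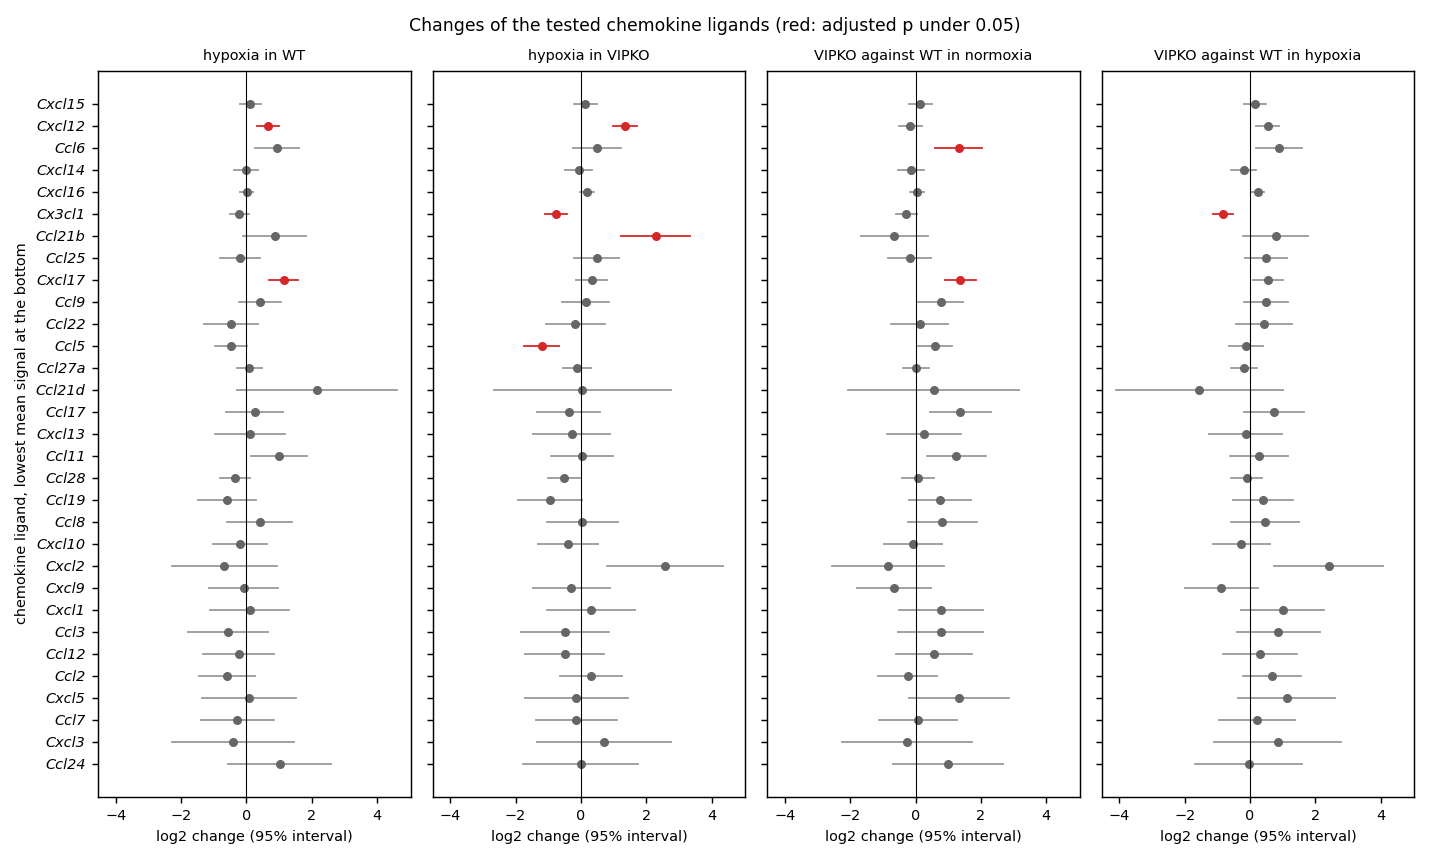
Log2 change (dots) and 95% interval (lines) of each of the 31 tested chemokine ligands in 4 comparisons, on a shared axis, ordered by mean signal; red marks an adjusted p under 0.05. The 9 red intervals belong to 6 ligands, and the intervals widen toward the weakly expressed ligands at the bottom.

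Cxcl12 (chr6:117168535-117181367, plus strand), which holds hematopoietic cells in their niches and signals through Cxcr4, rose with hypoxia in both genotypes. In WT normoxia it ran from 5138 to 8353 with a median of 6855. The WT hypoxia libraries, 1 to 5, had 8474, 8341, 10694, 15770 and 11396. The hypoxia libraries lay higher as a group, with WT hypoxia 2 just below the highest normoxia library. In whole lung, here and in all later results, a change in the number of cells of a type and a change in RNA per cell cannot be told apart.

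The change in WT was 0.66 ± 0.16 (adjusted p = 0.0133), with group means of 6805 ± 1116 (SD, n = 6) in normoxia and 10935 ± 3018 (SD, n = 5) under hypoxia. In VIPKO normoxia Cxcl12 was 6910, 6581, 4736 and 6154, and in VIPKO hypoxia it was 12933, 14370, 13999, 19965 and 17301. Every VIPKO hypoxia library was above every VIPKO normoxia library, and all 5 were above 4 of the 5 WT hypoxia libraries. The change in VIPKO was 1.36 ± 0.18 (adjusted p = 0.000222), a 2.57-fold rise on this scale.

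Both hypoxia calls of Cxcl12 were kept in all 34 alternatives run. The VIPKO change was 1.27 (adjusted p = 0.00116) when the library labelled VIPKO hypoxia 4 was left out. The difference between the 2 hypoxia effects was 0.70 ± 0.24 and did not pass (adjusted p = 0.184). VIPKO against WT in hypoxia was 0.55 ± 0.17 (adjusted p = 0.0893). Without WT hypoxia 4, the highest of its group and the shallowest library, both passed, at 0.84 (adjusted p = 0.0414) and 0.69 (adjusted p = 0.0246).

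Of the receptors of Cxcl12, Ackr3 passed the test and Cxcr4 did not. Cxcr4, which carries its classical signal, differed by 0.02 ± 0.13 with hypoxia in WT (adjusted p = 0.925) and by 0.01 ± 0.15 in VIPKO (adjusted p = 0.991). Ackr3, the atypical receptor that takes Cxcl12 up, rose with hypoxia in VIPKO by 0.89 ± 0.21 (adjusted p = 0.0398), and its mean was 568 ± 97.3 (SD, n = 4) in normoxia against 1061 ± 227 (SD, n = 5) in hypoxia. In WT its change was 0.46 ± 0.19 and did not pass (adjusted p = 0.0974).

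Ccl21b (chr4:42255767-42256432, plus strand) passed with hypoxia in VIPKO, with a large spread. In VIPKO normoxia it was 645, 135, 84.5 and 415, and in VIPKO hypoxia 1223, 281, 1806, 1838 and 1767. VIPKO hypoxia 2 lay below 2 of the 4 normoxia libraries. The change was 2.29 ± 0.51 (adjusted p = 0.0321), and it missed the threshold in 12 of 34 alternatives, among them leaving out VIPKO normoxia 2 (adjusted p = 0.115), VIPKO normoxia 3 (0.163), VIPKO hypoxia 1 (0.0740), VIPKO hypoxia 3 (0.0731), the library labelled VIPKO hypoxia 4 (0.0928) or VIPKO hypoxia 5 (0.0714). Mitochondrial ribosomal RNA as a covariate was another of the 12 (adjusted p = 0.0735).

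In WT, Ccl21b ran from 326 to 447 with a median of 349 in normoxia and was 424.6, 712, 721, 756 and 813 in hypoxia. That change was 0.86 ± 0.46 and did not pass (adjusted p = 0.197). In the 3 libraries lowest in Ccl21b, Gm10591 and Ccl21d had nearly the same signal as Ccl21b. In VIPKO normoxia 2, VIPKO normoxia 3 and VIPKO hypoxia 2, Ccl21b and Gm10591 had the same value (135, 84.5 and 281), and Ccl21d was close to it (127, 79.85 and 265). Gm13304 was at 97.0, 88.0 and 322 in these libraries. In VIPKO normoxia 1, where Ccl21b was at 645, Ccl21d was at 0.362 and Gm10591 at 0.383.

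For this reason the copies were also summed within each library and fitted in place of their separate lines, an alternative chosen after seeing the data. The sum of the 5 genes, Ccl21a included, ran from 1035 to 1552 in WT normoxia (median 1342) and was 1802, 3213, 2980, 4373 and 3094 in WT hypoxia. It was 1862, 1390, 1209 and 1854 in VIPKO normoxia and 4081, 3613, 5793, 5639 and 5270 in VIPKO hypoxia. In each genotype all hypoxia libraries were above all normoxia libraries.

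The summed Ccl21 signal rose with hypoxia by 1.17 ± 0.18 in WT (adjusted p = 0.00155) and by 1.63 ± 0.20 in VIPKO (adjusted p = 0.000150). Without Ccl21a, the sum of the 4 copies with identical coding sequence rose by 0.94 ± 0.21 in WT (adjusted p = 0.00900) and by 1.64 ± 0.23 in VIPKO (adjusted p = 0.000596). These 4 calls were kept with each library left out in turn. VIPKO against WT gave 0.23 ± 0.19 in normoxia (adjusted p = 0.487) and 0.69 ± 0.19 in hypoxia (adjusted p = 0.0659) for the sum of 5, and its interaction was 0.46 ± 0.27 (adjusted p = 0.460). Without WT hypoxia 4 the genotype difference in hypoxia passed, at 0.83 (adjusted p = 0.0245). For the sum of 4 it was 0.84 ± 0.22 (adjusted p = 0.0511), and it passed without WT hypoxia 4 (1.00, adjusted p = 0.0180), WT normoxia 2 (adjusted p = 0.0484) or VIPKO normoxia 3 (adjusted p = 0.0412). Ccl21d alone, the other member of the set, had wide intervals and no call, with 2.15 ± 1.18 in WT hypoxia (adjusted p = 0.207).

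**Figure D3:**
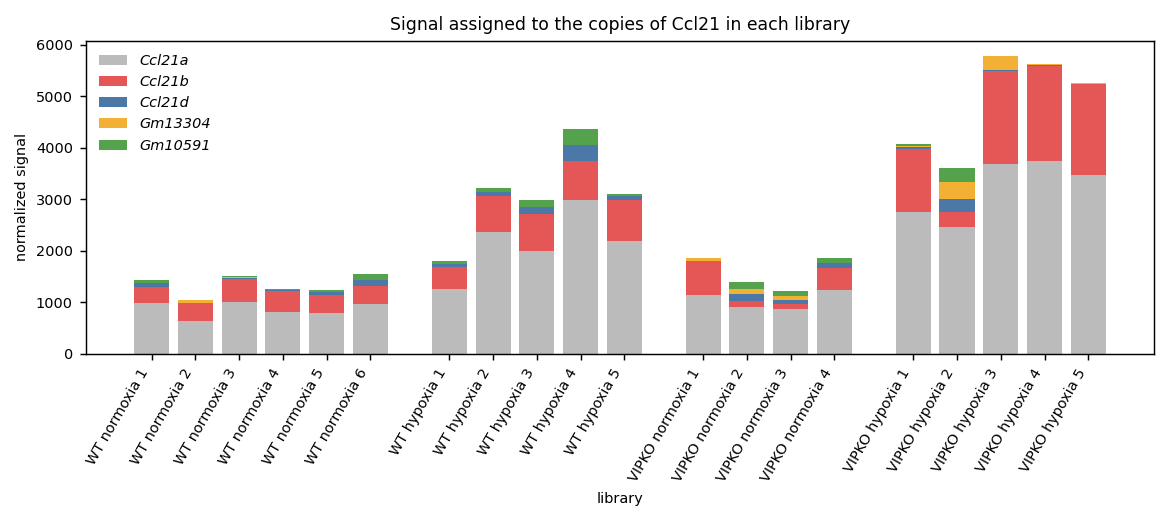
Normalized signal assigned to Ccl21a, Ccl21b, Ccl21d, Gm13304 and Gm10591, stacked for each of the 20 libraries. The division among copies differs between libraries of 1 group, while the stacks of the hypoxia libraries, from 1802 upward in WT and from 3613 upward in VIPKO, stand above the normoxia stacks of the same genotype.

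Lymphatic endothelium is a main source of Ccl21 in tissue. Of 7 lymphatic marker genes, 4 rose with hypoxia in WT and 3 in VIPKO, with none lower. Mmrn1 rose by 1.20 ± 0.20 (adjusted p = 0.00240) in WT and by 1.35 ± 0.23 (adjusted p = 0.00374) in VIPKO, and Prox1, the lymphatic identity factor, by 1.18 ± 0.22 (adjusted p = 0.00414) and 1.47 ± 0.25 (adjusted p = 0.00374). The summed signal of the list ran from 6682 to 9771 in WT normoxia, 7662 to 13500 in WT hypoxia, 6619 to 9066 in VIPKO normoxia and 7394 to 11968 in VIPKO hypoxia. Its part in the Ccl21 result was not tested.

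Ccr7, the receptor of Ccl19 and Ccl21 on dendritic cells and naive lymphocytes, fell with hypoxia in WT by 0.71 ± 0.18 (adjusted p = 0.0174), and its mean was 330 ± 70.5 (SD, n = 6) in normoxia against 201 ± 42.0 (SD, n = 5) in hypoxia. Ackr4, the atypical receptor that clears Ccl19, Ccl21 and Ccl25, fell with hypoxia in VIPKO by 0.91 ± 0.19 (adjusted p = 0.0235), and its mean was 146 ± 22.8 (SD, n = 4) in normoxia against 77.8 ± 14.97 (SD, n = 5) in hypoxia, and was lower in VIPKO than in WT hypoxia by 0.76 ± 0.18 (adjusted p = 0.0399). Ccl19 itself had no call. It was 63.5, 42.5, 60.4 and 32.3 in VIPKO normoxia and 20.45, 76.3, 17.5, 10.5 and 29.0 in VIPKO hypoxia, a change of -0.95 ± 0.47 (adjusted p = 0.405).

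Of the 10 homeostatic and lymphoid ligands listed, 8 were measured and tested. In WT hypoxia 1 rose, Cxcl12, and in VIPKO hypoxia 2 rose, Cxcl12 and Ccl21b, with median changes of the 8 at 0.09 and -0.03. Cxcl13, which draws B cells through Cxcr5, had hypoxia differences of 0.10 ± 0.51 in WT (adjusted p = 0.910) and -0.29 ± 0.57 in VIPKO (adjusted p = 0.865). Ccl27a and Ccl28, epithelial ligands of Ccr10, had no call, although Ccl28 groups did not overlap in VIPKO: 40.8, 36.6, 63.0 and 34.9 in normoxia and 30.3, 34.3, 31.3, 26.2 and 26.4 in hypoxia (adjusted p = 0.379).

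Ccl25, the ligand that guides thymocytes and gut lymphocytes through Ccr9, stood apart in 1 library. It was 1014 in VIPKO hypoxia 3 and 265, 247, 229 and 231 in the other libraries of that group, and the highest value outside the group was 373, in WT hypoxia 4. VIPKO hypoxia 3 is the library with thymic genes, where Prss16 was 2583 against at most 9.59 elsewhere and Psmb11 was 420 against at most 1.69. Xcl1, a product of T and NK cells, also had its highest value there, at 15.1. The hypoxia change of Ccl25 in VIPKO was 0.48 ± 0.33 (adjusted p = 0.545). Ccl25 overlaps the annotated gene Elavl1, so its reads may include some of that gene. Cxcl16 (Zmynd15), Cxcl10 (Art3) and Ccl27a (Il11ra1) are among the other ligands that overlap an annotated gene.

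Cxcl17 (chr7:25400053-25412886, minus strand), a mucosal ligand of airway epithelium, was lowest in WT normoxia and higher in the other 3 groups. In WT normoxia it ran from 99.0 to 149 with a median of 124. In WT hypoxia it was 410.8, 247, 274, 248.8 and 193, in VIPKO normoxia 227, 431, 271 and 369, and in VIPKO hypoxia 295, 311, 590, 521 and 336. All libraries of the other groups were above the highest WT normoxia library.

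It rose with hypoxia in WT by 1.14 ± 0.21 (adjusted p = 0.00378), a call kept in all 34 alternatives, and was higher in VIPKO than in WT normoxia by 1.38 ± 0.23 (adjusted p = 0.00264). In VIPKO its hypoxia difference was 0.32 ± 0.23 (adjusted p = 0.576), and the interaction of -0.81 ± 0.32 did not pass (adjusted p = 0.248). The genotype call was lost without VIPKO hypoxia 2 and VIPKO normoxia 2 and 3 together (1.26, adjusted p = 0.0977). It was also lost with mitochondrial ribosomal RNA as a covariate (1.75, adjusted p = 0.410). With that covariate 0 of all genes passed for VIPKO against WT in normoxia. That RNA nearly follows the genotype, so the covariate cannot show whether the Cxcl17 difference holds. Cxcl17 overlaps the annotated gene 4732471J01Rik, and the counting strand is not given in the sources used here.

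Genes of airway secretory cells moved in the same comparisons. Of 8 club cell markers, 5 rose with hypoxia in WT and 7 were higher in VIPKO normoxia, with none lower, and none passed with hypoxia in VIPKO (all 8 tested in each). Scgb3a1 rose by 6.88 ± 1.07 in WT hypoxia (adjusted p = 0.00156) and was higher by 5.93 ± 1.14 in VIPKO normoxia (adjusted p = 0.00591). The summed list signal ran from 166443 to 232892 in WT normoxia, 188796 to 459254 in WT hypoxia, 267315 to 470445 in VIPKO normoxia and 225645 to 356640 in VIPKO hypoxia. Other lists moved in the same comparisons. Of 5 ciliated cell genes 3 rose with hypoxia in WT and 3 were higher in VIPKO normoxia. For 7 alveolar type 2 genes the counts were 5 and 2, for 8 adipocyte genes 8 and 2, and for 11 alveolar macrophage genes 6 and 6. With hypoxia in VIPKO 0 of these genes passed. The part of any of these cells in the Cxcl17 result was not tested.

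Cxcl14, the other mucosal ligand, ran from 1001 to 2370 over all libraries and had no call, with changes between -0.19 and -0.02 in the 4 comparisons. The groups of Cxcl15 overlapped in every comparison. In WT its mean signal was 12954 ± 2998 (SD, n = 6) at normal oxygen and 13826 ± 1867 (SD, n = 5) under hypoxia. The VIPKO means were 14159 ± 2669 (SD, n = 4) and 15375 ± 1302 (SD, n = 5). For hypoxia in WT its 95% interval ran from -0.20 to 0.45, and for VIPKO against WT in normoxia from -0.20 to 0.49.

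Cx3cl1 (chr8:94772009-94782427, plus strand), or fractalkine, is a membrane-bound ligand of endothelium and epithelium that can be shed, and it was lowest in VIPKO hypoxia. It ran from 733 to 1144 in WT normoxia (median 988) and was 792, 824, 1024, 649 and 920 in WT hypoxia. In VIPKO normoxia it was 831, 697, 749 and 935, and in VIPKO hypoxia 418, 333, 607, 515 and 513. No VIPKO hypoxia library reached the lowest library of any other group.

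It fell with hypoxia in VIPKO by 0.77 ± 0.16 (adjusted p = 0.0208) and was lower in VIPKO than in WT hypoxia by 0.83 ± 0.15 (adjusted p = 0.0146). In WT the hypoxia change was -0.22 ± 0.14 (adjusted p = 0.304), and the interaction was -0.55 ± 0.22 (adjusted p = 0.249). Without the library labelled VIPKO hypoxia 4 both calls were kept, at -0.81 (adjusted p = 0.0354) and -0.87 (adjusted p = 0.0321). The hypoxia call missed the threshold without VIPKO normoxia 3 (adjusted p = 0.0554), VIPKO normoxia 4 (0.0772) or VIPKO hypoxia 1 (0.0614), and both missed it without VIPKO hypoxia 2 and VIPKO normoxia 2 and 3 together (0.110 and 0.0583). The genotype call also missed it with mitochondrial ribosomal RNA, which nearly follows the genotype, as a covariate (adjusted p = 0.0949). With only the groups compared in the fit, the hypoxia call (adjusted p = 0.0767) and the genotype call (adjusted p = 0.105) were both lost. The hypoxia call was also lost with the replicate block (adjusted p = 0.0718). Of 34 alternatives, 28 kept the hypoxia call and 31 the genotype call.

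Its receptor Cx3cr1, on monocytes and some macrophages, had no call, with -0.46 ± 0.28 with hypoxia in VIPKO (adjusted p = 0.508). Of 9 capillary endothelial markers, 2 fell with hypoxia in VIPKO: Plvap by 1.57 ± 0.19 (adjusted p = 0.000142) and Ednrb by 1.14 ± 0.16 (adjusted p = 0.000624). With hypoxia in WT 4 of the 9 fell (Plvap, Ednrb, Kdr and Apln) and 1 rose (Gpihbp1), and the Cx3cl1 change there was -0.22 ± 0.14 (adjusted p = 0.304). Between VIPKO and WT in hypoxia 1 of the 9 was higher (Sema3c) and 1 lower (Plvap, by 0.76 ± 0.18, adjusted p = 0.0404). The list's summed signal ran from 65163 to 74066 in WT normoxia, from 47718 to 70656 in WT hypoxia, from 54466 to 62031 in VIPKO normoxia and from 43392 to 69267 in VIPKO hypoxia, and its part in the Cx3cl1 result was not tested.

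Cxcl16, the other transmembrane ligand, which also binds oxidised lipoprotein, ran from 903 to 1499 over all 20 libraries. Its largest change was 0.23 ± 0.10 for VIPKO against WT in hypoxia (adjusted p = 0.209), with its highest value in VIPKO hypoxia 3. The groups overlapped in all comparisons.

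**Figure D4:**
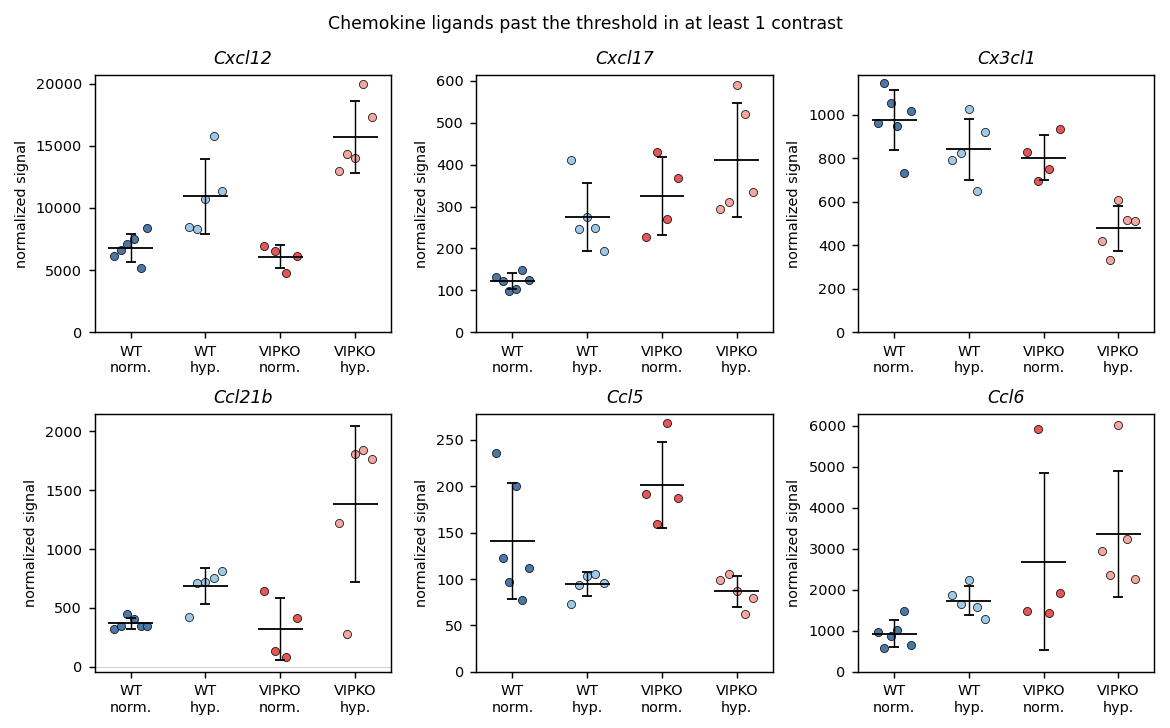
Normalized signal of the 6 ligands with at least 1 call, with 1 point per library, the group mean as a horizontal line and the SD as a bar. Cxcl12 stands highest in VIPKO hypoxia (12933 to 19965), Cx3cl1 lowest there (333 to 607), Cxcl17 lowest in WT normoxia (99.0 to 149), and for Ccl6 a single library in each VIPKO group lies far above the others.

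Ccl5 (chr11:83525778-83530518, minus strand), or RANTES, is made by T and NK cells and recruits T cells and monocytes. In VIPKO normoxia it was 191.5, 160, 268 and 187, and in VIPKO hypoxia 98.6, 106, 87.4, 61.9 and 79.1, so that the groups did not overlap. It fell by 1.21 ± 0.26 (adjusted p = 0.0281), and its mean was 202 ± 46.4 (SD, n = 4) in normoxia against 86.5 ± 17.2 (SD, n = 5) in hypoxia. The call was lost without VIPKO normoxia 3 (adjusted p = 0.141), VIPKO normoxia 4 (0.0580), the library labelled VIPKO hypoxia 4 (0.0823) or VIPKO hypoxia 5 (0.0571). It was also lost in 4 further alternatives, among them mitochondrial ribosomal RNA as a covariate (adjusted p = 0.0853).

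In WT, Ccl5 ran from 77.4 to 236 in normoxia (median 117) and was 72.8, 93.1, 104, 105 and 96.0 in hypoxia, a change of -0.48 ± 0.24 that did not pass (adjusted p = 0.166). Of 9 NK cell markers, 4 fell with hypoxia in WT and none passed in VIPKO, although the list's median change was -0.87 in WT and -0.92 in VIPKO. Its summed signal ran from 536 to 959 in WT normoxia, 276 to 509 in WT hypoxia, 567 to 834 in VIPKO normoxia and 220 to 535 in VIPKO hypoxia. None of 9 T cell markers passed in either genotype, with a sum of 598 to 12349 in VIPKO hypoxia, the highest in VIPKO hypoxia 3. The part of these cells in the Ccl5 result was not tested.

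Ccl6 (chr11:83587882-83593087, minus strand), a product of alveolar macrophages and other myeloid cells, was higher in VIPKO normoxia. It ran from 575 to 1488 in WT normoxia (median 918) and was 1490, 5915, 1432 and 1908 in VIPKO normoxia. VIPKO normoxia 2 stood far above the rest, and VIPKO normoxia 3 lay just below the highest WT library. The change was 1.32 ± 0.34 (adjusted p = 0.0223).

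Without VIPKO normoxia 2 the change of Ccl6 was 0.85 (adjusted p = 0.107), without VIPKO normoxia 4 it was 1.39 (adjusted p = 0.0600), and with mitochondrial ribosomal RNA as a covariate it was 1.23 (adjusted p = 0.545). With that covariate, which nearly follows the genotype, 0 of all genes passed for VIPKO against WT in normoxia, so it cannot decide on Ccl6. In hypoxia Ccl6 was 1876, 1656, 2243, 1574 and 1296 in WT and 2955, 2353, 6018, 3236 and 2254 in VIPKO. These groups did not overlap, but the difference of 0.88 ± 0.33 did not pass (adjusted p = 0.158). Neither did the hypoxia change in WT, 0.94 ± 0.32 (adjusted p = 0.0519), which passed in 9 of 34 alternatives. Ccl6 overlaps the annotated gene E230016K23Rik, so its reads may include some of that gene.

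Alveolar macrophage markers were also higher in VIPKO normoxia. Of 11, 6 were higher in VIPKO normoxia, among them Mrc1 (0.87 ± 0.20, adjusted p = 0.0131) and Ear2 (0.89 ± 0.22, adjusted p = 0.0178). With hypoxia in WT 6 of the 11 rose, and the Ccl6 change there was 0.94 ± 0.32 (adjusted p = 0.0519). The summed signal was 5876 to 10264 in WT normoxia, 11992 to 24188 in WT hypoxia, 10349 to 82314 in VIPKO normoxia and 18124 to 53936 in VIPKO hypoxia. Its highest values were in VIPKO normoxia 2 and VIPKO hypoxia 3, the libraries highest in Ccl6. The part of these cells in the Ccl6 result was not tested.

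Other CC ligands of myeloid cells showed no call. Ccl9 was 188, 515, 200 and 178 in VIPKO normoxia and ran from 83.9 to 189 in WT normoxia, a change of 0.77 ± 0.33 (adjusted p = 0.145). VIPKO normoxia 2 was again the high library, as it was for Ccl17 (211, against 41.7 to 48.9 in the other VIPKO normoxia libraries) and Ccl22 (321, against 93.1 to 115), both ligands of Ccr4 made by dendritic cells and macrophages. The Ccl17 change was 1.37 ± 0.45 (adjusted p = 0.0590) and, without VIPKO normoxia 2, 0.83 (adjusted p = 0.281). The Ccl22 change was 0.12 ± 0.42 (adjusted p = 0.891).

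The monocyte attractants were low throughout. Ccl2 ran from 3.36 to 24.6, Ccl7 from 1.58 to 19.4 and Ccl12 from 1.68 to 19.4 over the 20 libraries, and Ccl8 from 7.87 to 60.4. Ccl3, from the same list, ran from 1.69 to 42.1. Of the 9 CC monocyte and macrophage ligands, 8 were tested. With hypoxia 1 of them fell in VIPKO, Ccl5, and none passed in WT, and for VIPKO against WT in normoxia 1 was higher, Ccl6, with a median change of 0.68 over the 8.

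Ccl11, eotaxin, which recruits eosinophils, was lowest in WT normoxia, from 14.5 to 25.5. It was 25.7, 104, 39.5 and 50.1 in VIPKO normoxia, with no overlap, and 15.04, 35.5, 52.6, 46.65 and 78.8 in WT hypoxia. Neither change passed, at 1.25 ± 0.44 (adjusted p = 0.0783) and 0.99 ± 0.41 (adjusted p = 0.0984). Without VIPKO normoxia 1 the first passed (1.54, adjusted p = 0.0357), and without WT hypoxia 1 the second did (1.34, adjusted p = 0.0415). Ccl24, the other eotaxin, stayed at or under 17.3 in every library.

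Among the neutrophil attractants, Cxcl2 (chr5:90903871-90905938, plus strand; its promoter letters are among those printed) had the highest estimates of the 31 ligands for VIPKO hypoxia against either VIPKO normoxia or WT hypoxia, but no call. It was 91.0, 90.7, 63.7, 15.7 and 11.99 in VIPKO hypoxia and 2.66, 8.87, 8.54 and 5.82 in VIPKO normoxia. The groups did not overlap, and the high values lay in VIPKO hypoxia 1, 2 and 3. In WT it ran from 4.22 to 54.6 in normoxia (median 10.4) and was 6.33, 13.5, 5.53, 38.9 and 0 in hypoxia.

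The hypoxia change of Cxcl2 in VIPKO was 2.56 ± 0.85 (adjusted p = 0.186), that of VIPKO against WT in hypoxia 2.41 ± 0.80 (adjusted p = 0.116), and the interaction 3.25 ± 1.15 (adjusted p = 0.205). The second passed without WT hypoxia 4, at 3.00 (adjusted p = 0.0430), whose 38.9 rested on about 10 estimated reads. Of the other 4 neutrophil attractants none passed: Cxcl1 ran from 1.57 to 37.7, Cxcl3 from 0 to 29.9 and Cxcl5 from 0 to 45.1. All 5 had a positive estimate for VIPKO against WT in hypoxia, with a median of 1.00.

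The receptor Cxcr2 on neutrophils was highest in VIPKO hypoxia 1, at 1482, with a group mean of 585 ± 540 (SD, n = 5) against 145 ± 70.8 (SD, n = 5) in WT hypoxia (1.69 ± 0.51, adjusted p = 0.0864). Of 10 neutrophil genes tested, 3 were higher in VIPKO than in WT hypoxia, S100a8 (2.54 ± 0.62, adjusted p = 0.0439), S100a9 (2.59 ± 0.61, adjusted p = 0.0377) and Ngp (2.95 ± 0.73, adjusted p = 0.0445). The summed signal of 11 neutrophil genes ran from 1762 to 20174 in VIPKO hypoxia and from 869 to 3615 in WT hypoxia, and its part in the Cxcl2 values was not tested.

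The interferon-induced ligands Cxcl9 and Cxcl10, which act through Cxcr3, did not pass in any comparison. Cxcl10 ran from 8.39 to 56.6 and Cxcl9 from 2.66 to 45.3, and in WT normoxia 2 both had the highest value of all 20 libraries. Changes of Cxcl10 lay between -0.40 and -0.07 in the 4 comparisons. None of 15 interferon-stimulated genes passed in any comparison. The platelet chemokines Pf4 and Ppbp, whose names fall outside the rule, had no call either.

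**Figure D5:**
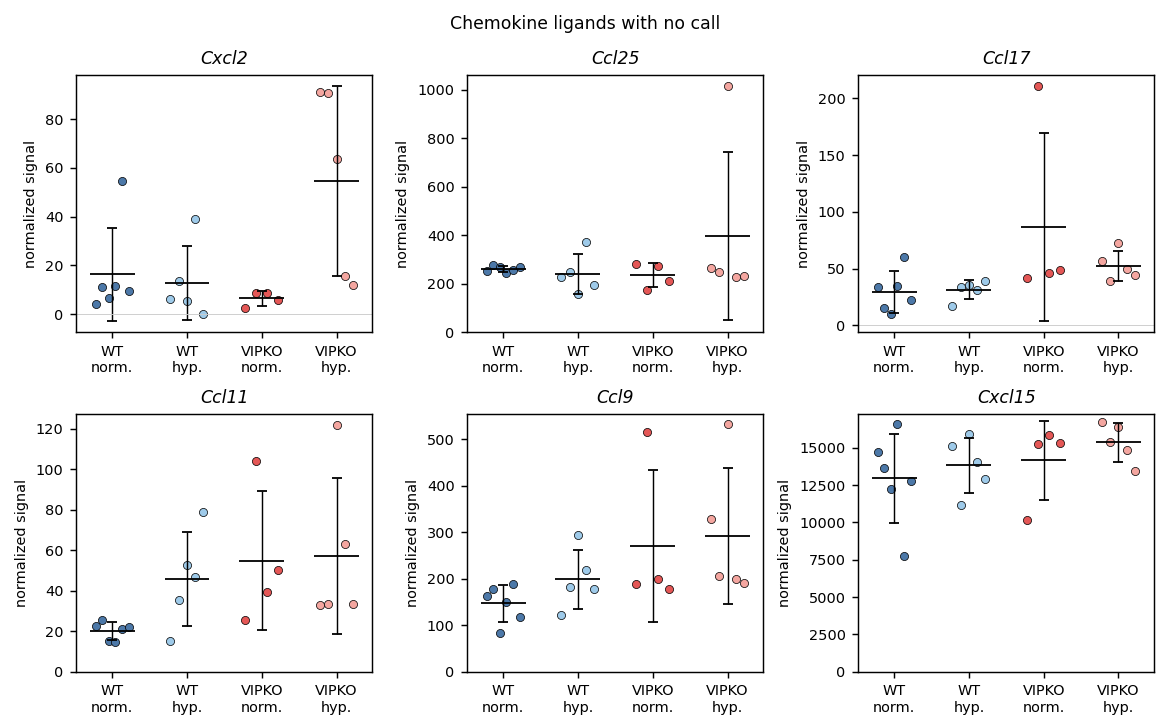
Normalized signal of 6 ligands with no call, with 1 point per library, the group mean as a horizontal line and the SD as a bar. Cxcl2 is high in 3 VIPKO hypoxia libraries (63.7 to 91.0), Ccl25 in VIPKO hypoxia 3 alone (1014), Ccl17 and Ccl9 in VIPKO normoxia 2 (211 and 515), while Cxcl15 groups overlap.

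No ligand passed in the interaction of genotype and oxygen by limma, where 0.282% of all genes did. At an unadjusted p under 0.05 there were 4 (Cx3cl1, Cxcl2, Cxcl12 and Cxcl17), or 12.9% of the 31, against 14.2% of all genes. By limma with library weights 3 passed (Cxcl12, Cxcl17 and Cx3cl1). Those weights called 2228 of all genes for the interaction, against 61 without weights, so the added calls were not particular to the ligands. With weights on estimated reads no ligand passed. Cxcl12 also passed without WT hypoxia 4. A difference between the hypoxia effects of the genotypes was thus not shown by the fit of all libraries, and its absence was not shown either.

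The chemokine receptors, as a list of 18 genes of which 17 were tested, fell or did not pass. Among those that fell with hypoxia in WT, Cxcr5 fell by 1.32 ± 0.23 (adjusted p = 0.00240), Ccr7 by 0.71 ± 0.18 (adjusted p = 0.0174) and Ccr6 by 1.01 ± 0.29 (adjusted p = 0.0247). In VIPKO hypoxia Cxcr5 fell by 1.11 ± 0.25 (adjusted p = 0.0349), and for VIPKO against WT none of the 17 passed at either oxygen level. Cxcr5, the B cell receptor for Cxcl13, ran from 145 to 505 in WT normoxia and from 98.2 to 151 in WT hypoxia.

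B cell markers also fell with hypoxia. Of 9, 8 fell with hypoxia in WT and 6 in VIPKO, and the summed signal ran from 2558 to 7012 in WT normoxia, 1707 to 3032 in WT hypoxia, 3075 to 4738 in VIPKO normoxia and 1245 to 1969 in VIPKO hypoxia. Their part in the changes of Cxcr5, Ccr7 and Ccr6 was not tested. Of the 5 atypical receptors, 4 were tested, and beside Ackr3 and Ackr4 only Ccrl2 passed, lower in VIPKO than in WT normoxia by 0.38 ± 0.12 (adjusted p = 0.0464).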

How the data were processed

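Whole-lung RNA was measured in 20 libraries of 4 groups by stranded RNA sequencing (RNeasy Mini Plus, NEBNext Ultra II Directional, per the labels' protocols). The deposited values are a normalized signal per gene, made by the authors from reads with Partek and mm10, per the submitters' processing notes. Not given in the sources used here: aligner, counting strand, normalization. Of 30746 deposited lines, 55 without a gene name (at most 0.0187% of the signal of a library) were left out. Low values of 19 libraries were near whole multiples of 1 step (81.8% to 89.1% within 0.05 reads), from which depth was estimated. Genes with a signal of at least 10 in at least 4 libraries were fitted as log2(signal + 1) with limma 3.58.1 (R 4.3.3, variance trend), all groups in 1 fit and 5 contrasts, with Benjamini-Hochberg adjusted p-values over 21658 genes and a threshold of 0.05. The pseudocount of 1 understates the change of low genes. The script was tested on simulated data. Levels per kb used exon lengths and coordinates of GENCODE vM21 (GRCm38). Summaries used Python 3.11.15 with pandas 2.3.3 and numpy 2.4.6, and plots matplotlib 3.10.9. Alternatives covered pseudocount, filter, scaling, variance model, samples in the fit, replicate block, a mitochondrial ribosomal RNA covariate and left-out libraries. Every ligand is accounted for. Library values, ranges or means are given for ligands past the threshold in a contrast and up to 3 of each role by level, and of other lists at most 4 called genes by smallest p. The members and gene lists were chosen with earlier results of these data known. For 1 gene of the receptor list values are not reported here.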

Additional observations from a re-analysis of the deposited data

Results flagged for a closer look

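Of 88 groups of libraries examined (22 ligands in 4 groups), 13 held a library whose gap to its nearest neighbour was large for the range of its group. The limit used is one that normally distributed values pass in about 1 in 20 groups. The signal was not log-transformed here and the same libraries recur across ligands, so the 13 cannot be set against that rate. VIPKO normoxia 2 was far above the rest of its group for 4 ligands: Ccl6 at 5915 (next 1908), Ccl9 at 515 (next 200, at 199.6), Ccl17 at 211 (next 48.9) and Ccl22 at 321 (next 115). The summed alveolar macrophage genes were also highest there, at 82314. VIPKO hypoxia 3 was far above its group for Ccl25 at 1014 (next 265), Ccl6 at 6018 (next 3236), Cxcl10 at 53.9 (next 20.02) and Xcl1 at 15.1 (next 4.33), and it held the thymic genes. WT normoxia 2 was far above its group for the interferon-induced Cxcl10 at 56.6 (next 29.4) and Cxcl9 at 45.3 (next 15.5), and WT normoxia 5 for Cxcl2 at 54.6 (next 11.7). Among low values, Ccl21b in WT hypoxia 1 was at 424.6 (next 712) and Cxcl15 in VIPKO normoxia 1 at 10174 (next 15272).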

How the results depend on the processing

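The number of ligands called was 2 for hypoxia in WT, 4 for hypoxia in VIPKO, 2 for VIPKO against WT in normoxia, 1 in hypoxia and 0 for the interaction. With library weights these were 5, 4, 5, 3 and 3. Those weights also gave the highest counts over all genes, 6590, 717, 5448, 1926 and 2228 in the same order, so the added calls were not particular to the ligands. With only the groups compared in the fit the ligand counts were 4, 2, 3 and 0. With the mitochondrial ribosomal RNA covariate they were 2, 2, 0, 0 and 0. That covariate nearly follows the genotype and left 0 of all genes called for VIPKO against WT in normoxia. Leaving out 3 libraries together (VIPKO hypoxia 2, VIPKO normoxia 2 and 3), they were 4, 2, 0, 1 and 0, and without WT hypoxia 5 and VIPKO hypoxia 3 together 3, 2, 3, 1 and 0. With the replicate block they were 2, 1, 1, 1 and 0: of 27 same-numbered pairs, 7 correlated above 0.1 (median r -0.0178) and 7 libraries correlated best with their own number, so the numbers were not taken as pairs. Leaving out each library in turn gave 2 to 3, 1 to 4, 1 to 4, 1 to 3 and 0 to 1. Pseudocounts, filters, scalings and the variance trend kept every such count within 1.5 times. Over all genes the counts ranged from 1382 to 6590 around 3173 for hypoxia in WT, from 45 to 717 around 216 for hypoxia in VIPKO, from 0 to 5448 around 1873 and from 9 to 1926 around 350 for VIPKO against WT in normoxia and in hypoxia, and from 0 to 2228 around 61 for the interaction. Among single ligands and sums 1 value changed sign: the sum of 4 Ccl21 copies for VIPKO against WT in normoxia was -0.00495 without VIPKO normoxia 1 (adjusted p = 0.993), the lowest of its left-out values, which reached 0.356 without VIPKO normoxia 3. The causes of these shifts were not tested. The Ccl21 sums and the weights on estimated reads were chosen after seeing the data. Those weights use the estimated depth of every library, including that of VIPKO hypoxia 2, which could not be settled. Depth limits the ligands near the floor of 3 reads, and Vip did not check the genotype labels.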
